A study of Mus musculus with 12 samples.

Results

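The genes described here are the 10 that encode the digestive proteases made by acinar cells of the mouse pancreas. They are the trypsinogens Prss2, Try4 and Try5, the chymotrypsinogens Ctrb1 and Ctrl, the pancreatic elastases Cela1, Cela2a and Cela3b, and the carboxypeptidases Cpa1 and Cpb1. They were taken by name, not by their values, from a count table of 49315 genes. All 10 passed a filter on low counts that left 13115 genes for testing, and all 10 are in the comparison of 13703 genes that the authors deposited. Ctrl is a gene symbol (chymotrypsin-like) and does not stand for a control.

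RNA was sequenced from pancreatic islets of female NOD/ShiLtJ wild-type mice, a strain that develops autoimmune diabetes spontaneously. The mice were 9 weeks old and euglycemic when dosing began. One group received anti-CD3, an antibody against the T cell receptor complex, at 2.5 mg/kg once a week for 4 weeks (6 libraries), and the other received IgG on the same schedule (6 libraries). Islets were isolated with collagenase 2 or 3 days after the last dose. The labels do not say whether a library came from 1 mouse or from pooled mice, so the p-values measure the spread between these libraries.

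Acinar cells store these proteases in zymogen granules as inactive precursors. In the gut, enteropeptidase cleaves trypsinogen to trypsin, and trypsin then activates the other precursors. Trypsin, chymotrypsin and the elastases cut inside proteins, and the carboxypeptidases remove residues from the free carboxyl end. Acinar cells surround the islets, and exocrine tissue can be carried along when islets are isolated.

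The libraries held 10994337 to 19284740 counts in the anti-CD3 group and 11891132 to 17628347 counts in the IgG group. The 10 protease genes took 46.5% to 49.1% of all counts in anti-CD3 libraries, against 21.6% to 47.9% in IgG libraries. The lowest shares were 36.8% in IgG library 5 and 21.6% in IgG library 6. The tissue is labelled as islets, and all 10 endocrine marker genes, Ins1, Ins2 and Gcg among them, were detected, yet together they took only 1.01% to 2.13% of counts in anti-CD3 libraries and 1.32% to 4.08% in IgG libraries. In RNA from whole tissue, fewer cells of a type and less RNA per cell cannot be told apart. Summed leukocyte markers took 0.002% to 0.011% of counts in anti-CD3 libraries and 0.002% to 0.155% in IgG libraries, with the highest value in IgG library 6, and their part in the results was not tested. Summed stromal and endothelial markers took 0.007% to 0.018% of counts in anti-CD3 libraries and 0.010% to 0.101% in IgG libraries, and duct markers 0.084% to 0.109% in anti-CD3 libraries and 0.061% to 0.127% in IgG libraries. The fold changes, shares and ratios of the proteases to one another were also computed without IgG libraries 5 and 6.

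As a group, the proteases had higher estimates in anti-CD3 islets, but none passed the test across all genes. In edgeR's quasi-likelihood test with Benjamini-Hochberg adjustment, 0 of 10 passed an adjusted p of 0.05, against 0.0762% of all genes tested (10 of 13115). The fitted log2 fold change (anti-CD3 over IgG) was positive for 10 of 10 proteases, against 44.8% of all genes. Its median was 0.70 for the proteases, while the median of all genes was -0.05. At an unadjusted p of 0.05, 3 of 10 proteases (Prss2, Try5 and Cpb1) passed, against 9.68% of all genes in the same direction. With library totals in place of scaling factors the median of all genes was -0.70 and that of the proteases was 0.29. Without IgG libraries 5 and 6 the proteases' median was 0.35, and the edgeR log2 fold change was 0.61 for Prss2, 0.38 for Try4, 0.45 for Try5, -0.01 for Ctrb1, 0.20 for Ctrl, 0.36 for Cela1, 0.33 for Cela2a, 0.28 for Cela3b, 0.07 for Cpa1 and 0.47 for Cpb1, with adjusted p-values of 0.239 to 0.993. With an offset for transcript length the proteases' median was 0.37, with Prss2 at 0.58 and Ctrb1 at 0.03, while the median of all genes stayed at -0.05.

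**Figure D1:**
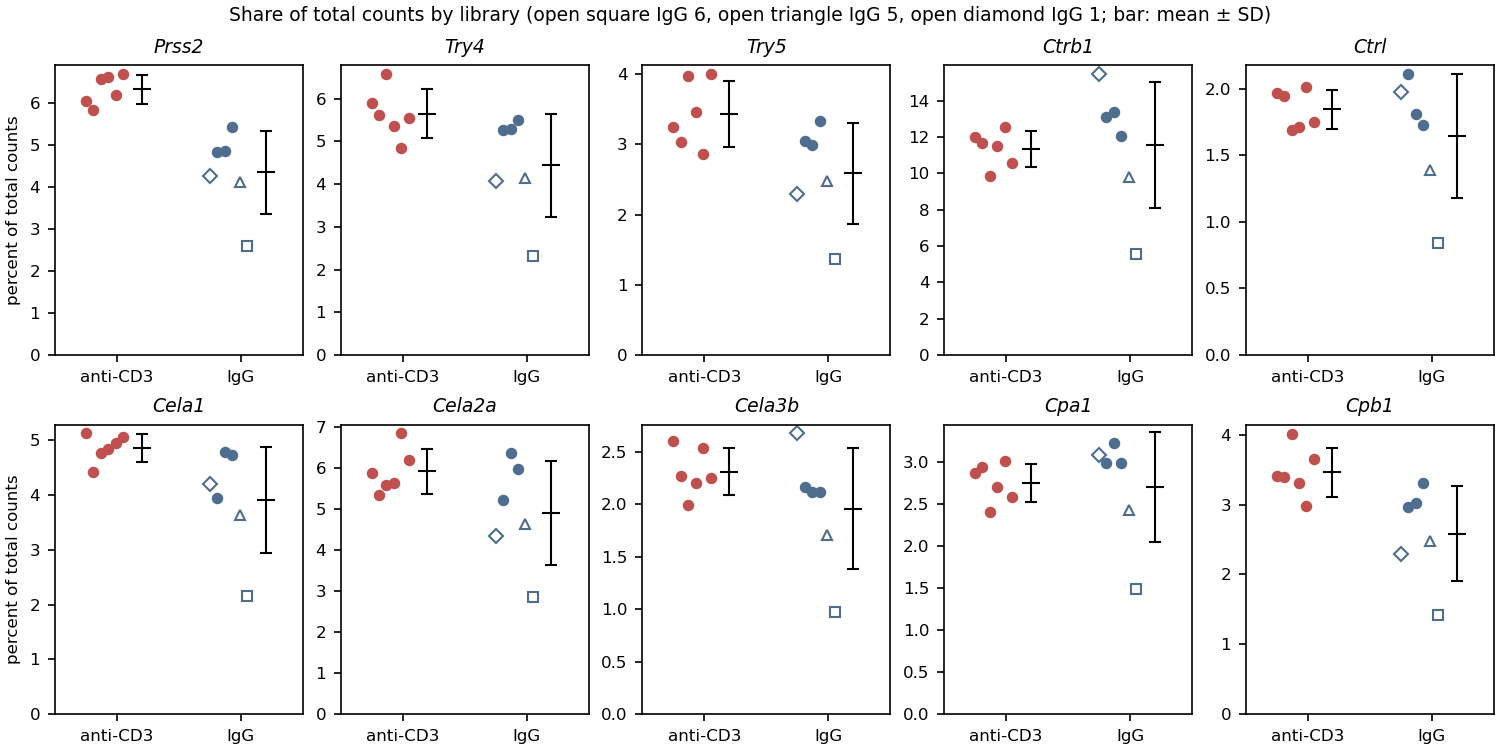
Share of total counts (percent) of each protease gene, 1 panel a gene, with anti-CD3 libraries left of IgG libraries. Each point is a library, the bar is the mean with its SD, and open symbols mark IgG libraries 1, 5 and 6. For Prss2 every anti-CD3 library (5.84% or more) lies above every IgG library (5.43% or less).

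Prss2 encodes a major trypsinogen of the mouse pancreas and lies at chr6:41521787-41525079 on the plus strand (GRCm38). Its deposited normalized counts had a lowest, median and highest value of 924741, 1159960 and 1270580 in anti-CD3 islets, against 165470, 625304 and 902774 in IgG islets. The groups did not overlap, and on the TMM-scaled log2 CPM scale, where they did not overlap either, 1.2% of all genes were likewise higher without overlap. Its share of total counts was 5.84%, 6.38% and 6.69% (lowest, median, highest) in anti-CD3 islets and 2.59%, 4.54% and 5.43% in IgG islets. The mean share was 6.33% ± 0.349 in anti-CD3 islets and 4.35% ± 0.981 in IgG islets (SD, n = 6 each; exact two-sided permutation p = 0.00216, the smallest that all regroupings of 6 against 6 allow). Adjusted over all 13115 genes, this exact permutation p was 0.0618. Non-overlapping shares that were higher in anti-CD3 islets were found for 0.122% of all genes.

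The edgeR estimate for Prss2 was a log2 fold change of 0.95 ± 0.36 (SE), with an adjusted p of 0.190. In the authors' deposited table Prss2 had a log2 fold change of 0.95 and an adjusted p of 0.0468, which made it the only one of the 10 below 0.05, against 4.55% of the genes with an adjusted p there. DESeq2 refitted to the counts also called 1 of 10 (Prss2, adjusted p = 0.0492), against 4.04% of genes. Without IgG libraries 5 and 6 its share did not overlap between the groups, and the difference was 1.48 percentage points (exact permutation p = 0.00476, the smallest that 210 regroupings allow). With fewer libraries non-overlap is easier to reach, and the share of all genes without overlap in that setting is not given here.

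Try4 and Try5 encode further trypsinogens from the same gene cluster on chromosome 6. Try4 took 4.85%, 5.58% and 6.57% of counts (lowest, median, highest) in anti-CD3 islets, against 2.32%, 4.71% and 5.51% in IgG islets. Try5 took 2.87%, 3.35% and 4.00% in anti-CD3 islets, against 1.36%, 2.74% and 3.34% in IgG islets. The groups overlapped for both. The exact permutation p for the share was 0.0411 for Try4 and 0.0390 for Try5, and without IgG libraries 5 and 6 it was 0.171 and 0.152. The edgeR log2 fold change was 0.74 ± 0.38 for Try4 (adjusted p = 0.308) and 0.80 ± 0.37 for Try5 (adjusted p = 0.269).

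The 3 trypsinogens are alike enough in sequence for counting to matter. The first 150 of their 741 coding bases (GENCODE annotation of GRCm38) are shown because they include the codons of the activation peptide that enteropeptidase removes, and because reads from identical stretches cannot be assigned to a single gene. Capitals mark the positions at which the 3 are not all identical.
Prss2: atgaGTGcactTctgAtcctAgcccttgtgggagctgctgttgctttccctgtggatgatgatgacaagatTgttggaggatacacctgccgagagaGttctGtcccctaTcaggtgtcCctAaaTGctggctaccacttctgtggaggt
Try4: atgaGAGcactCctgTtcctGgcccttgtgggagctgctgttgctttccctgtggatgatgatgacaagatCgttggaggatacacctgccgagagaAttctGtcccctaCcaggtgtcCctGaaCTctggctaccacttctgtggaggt
Try5: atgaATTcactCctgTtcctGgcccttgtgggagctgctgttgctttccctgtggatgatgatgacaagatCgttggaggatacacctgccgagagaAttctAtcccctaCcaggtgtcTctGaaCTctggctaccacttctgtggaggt

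Of the 150 positions shown, 14 differ among the 3 genes, and the codons of the activation peptide hold none of them. Over the whole coding sequence Try4 and Try5 were 97.4% identical, Prss2 and Try4 91.6%, and Prss2 and Try5 90.3%. Of all 100-base windows in the annotated transcript, 0 were shared with another gene for Prss2, against 30.2% for Try4 and 25.6% for Try5. At 50 bases the shares were 7.83% for Prss2, 65.6% for Try4 and 53.9% for Try5. The split of reads between Try4 and Try5 is therefore uncertain, while Prss2 is the most separable of the 3.

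Ctrb1, a chymotrypsinogen at chr8:111686519-111691010 on the minus strand, was the most abundant of the 10. Its deposited normalized counts were 1673110, 1939730 and 2545970 (lowest, median, highest) in anti-CD3 islets, against 356306, 1931340 and 2317290 in IgG islets. It took 9.84%, 11.6% and 12.6% of counts (lowest, median, highest) in anti-CD3 islets, against 5.58%, 12.6% and 15.5% in IgG islets. The groups overlapped, with means of 11.4% ± 0.996 in anti-CD3 islets and 11.6% ± 3.47 in IgG islets (SD, n = 6 each; exact permutation p = 0.890). Without IgG libraries 5 and 6 the share was 2.15 percentage points lower in anti-CD3 islets (exact permutation p = 0.0143). The edgeR log2 fold change was 0.37 ± 0.40 (adjusted p = 0.624), and it was -0.03 with library totals and -0.01 without IgG libraries 5 and 6, so its sign depended on the scaling and on those libraries. Without IgG library 6 alone it was 0.17.

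Ctrl encodes a chymotrypsin-like protease. It took 1.69%, 1.85% and 2.01% of counts (lowest, median, highest) in anti-CD3 islets, against 0.838%, 1.77% and 2.11% in IgG islets. The groups overlapped and the share did not pass the test (exact permutation p = 0.383). Its edgeR log2 fold change was 0.57 ± 0.36 (adjusted p = 0.405), and 0.37 without IgG library 6 alone.

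Cela1, Cela2a and Cela3b encode elastases. Cela1 took 4.42%, 4.89% and 5.14% of counts (lowest, median, highest) in anti-CD3 islets, against 2.16%, 4.07% and 4.79% in IgG islets. Its share passed the test on 12 libraries (exact permutation p = 0.0173) but not without IgG libraries 5 and 6 (exact permutation p = 0.0667). Cela2a took 5.36%, 5.76% and 6.87% in anti-CD3 islets, against 2.87%, 4.94% and 6.37% in IgG islets. Cela3b took 2.00%, 2.26% and 2.61% in anti-CD3 islets, against 0.971%, 2.12% and 2.68% in IgG islets. The groups overlapped for all 3 elastases. Cela2a and Cela3b did not pass on 12 libraries (exact permutation p = 0.0952 and 0.206). The edgeR log2 fold change was 0.72 ± 0.37 for Cela1, 0.68 ± 0.38 for Cela2a and 0.65 ± 0.37 for Cela3b, with adjusted p-values of 0.309, 0.344 and 0.355. Cela2a overlaps Casp9 and Ctrc in the annotation, and 33.2% of the 50-base windows of Cela3b were shared with Cela3a, so part of their counts is uncertain.

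Cpa1 and Cpb1 encode carboxypeptidases with different preferences for the residue removed, Cpa1 at chr6:30639218-30645363 on the plus strand and Cpb1 at chr3:20248264-20275733 on the minus strand. Cpa1 took 2.40%, 2.78% and 3.00% of counts (lowest, median, highest) in anti-CD3 islets, against 1.49%, 2.98% and 3.23% in IgG islets. Cpb1 took 2.98%, 3.41% and 4.02% in anti-CD3 islets, against 1.42%, 2.72% and 3.31% in IgG islets. The groups overlapped for both genes. The share of Cpa1 did not pass on 12 libraries (exact permutation p = 0.916), and without IgG libraries 5 and 6 it was lower in anti-CD3 islets, by a difference of -0.32 percentage points (exact permutation p = 0.0381). The share passed for Cpb1 (exact permutation p = 0.0108, and 0.0476 without IgG libraries 5 and 6). The edgeR log2 fold change was 0.43 ± 0.36 for Cpa1 (adjusted p = 0.523) and 0.82 ± 0.36 for Cpb1 (adjusted p = 0.253). For Cpa1 it was 0.23 without IgG library 6 alone and 0.02 with library totals.

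Counting all shares, 5 of 10 proteases (Prss2, Try4, Try5, Cela1 and Cpb1) were higher in anti-CD3 islets at an exact permutation p under 0.05, against 0.846% of all genes. None passed after adjustment over all 13115 genes, but no gene could have passed. The smallest exact permutation p that the test allows, that of Prss2, adjusted to 0.0618. Without IgG libraries 5 and 6, 2 of 10 (Prss2 and Cpb1) were higher and 2 of 10 (Ctrb1 and Cpa1) lower at an exact permutation p under 0.05. The percentage of all genes passing without those libraries is not given here, so these 2 counts cannot be set against a background. A share of total counts depends on every other gene in the library. Over all 12 libraries, 35.2% of all genes had a lower share at the same threshold.

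To separate the mix of proteases from their total, each gene was set against the other 9 within its own library. Prss2 made up 12.3%, 13.3% and 14.0% of the counts of the 10 genes (lowest, median, highest) in anti-CD3 islets, against 9.53%, 10.9% and 11.99% in IgG islets. Cpa1 made up 5.06%, 5.76% and 6.30% in anti-CD3 islets, against 6.31%, 6.67% and 6.90% in IgG islets. Neither gene overlapped between the groups. Relative to the proteases, 0.0534% of all genes were higher and 3.74% lower without overlap. Ctrb1 made up 20.7%, 24.3% and 25.8% in anti-CD3 islets and 25.6%, 27.3% and 34.6% in IgG islets, and its groups overlapped.

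**Figure D2:**
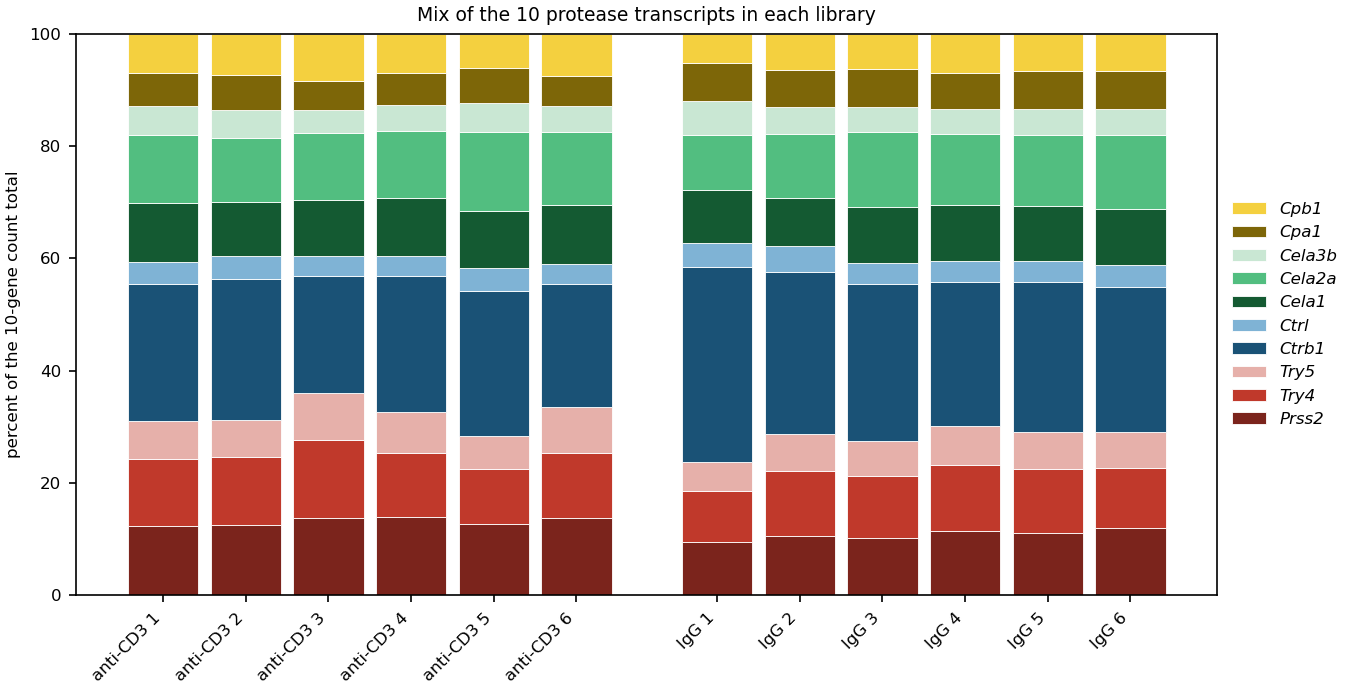
Percent of the 10-gene count total taken by each protease, 1 stacked bar a library, with anti-CD3 libraries left of IgG libraries. The Ctrb1 segment ranges from 20.7% to 25.8% in anti-CD3 libraries and from 25.6% to 34.6% in IgG libraries, and IgG library 1 has the highest.

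The log2 ratio of Prss2 to the other 9 proteases was 0.33 higher in anti-CD3 islets (1.26-fold; exact permutation p = 0.00216). The ratio of Cpa1 was lower, by a difference of -0.24 (exact permutation p = 0.00216), and that of Ctrb1 by a difference of -0.34 (exact permutation p = 0.00433). At this threshold 0.267% of all genes had a higher ratio to the proteases and 40.7% a lower one, so 2 of 10 lower does not exceed the background. This background depends on the proteases themselves, since they are the denominator. The other 7 proteases did not pass, with Cpb1 at 0.19 (exact permutation p = 0.0649) and Cela1 at 0.08 (exact permutation p = 0.0952). Adjusted over all 13115 genes, the exact permutation p was 0.0570 for Prss2 and Cpa1 and 0.0646 for Ctrb1. Without IgG libraries 5 and 6 the difference was 0.39 for Prss2 (exact permutation p = 0.00476), -0.41 for Ctrb1 (exact permutation p = 0.00952) and -0.23 for Cpa1 (exact permutation p = 0.0143).

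A model fit across all genes, with libraries scaled to the summed counts of the 10 proteases, called Prss2 alone among them. Its log2 fold change was 0.29 ± 0.11 (edgeR adjusted p = 0.0468), and that of Ctrb1 was -0.25 ± 0.10 (adjusted p = 0.0528). On this scale 44.4% of all genes were called, and 0.0762% were called higher. The call of Prss2 was lost in all but 1 of the fits that left out a single library, where its edgeR adjusted p ranged from 0.0472 to 0.0976, and its adjusted p was 0.219 without IgG libraries 5 and 6.

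**Figure D3:**
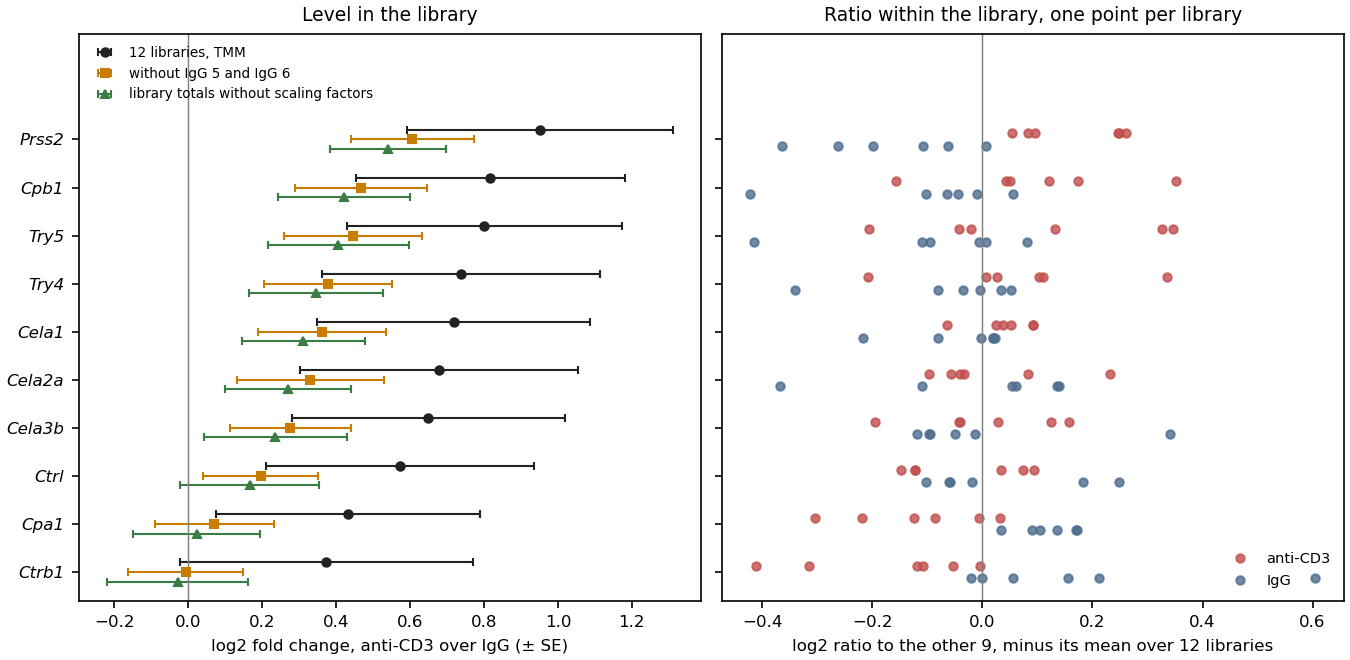
Left, edgeR log2 fold change (anti-CD3 over IgG, ± SE) of each protease under the settings in the legend. Right, log2 ratio of each protease to the other 9 within a library, minus its mean over the 12 libraries, 1 point a library. In the right panel the anti-CD3 points of Prss2 lie above all its IgG points, and those of Cpa1 lie below.

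By class, trypsinogens made up 32.2% ± 2.60 of the 10-gene counts in anti-CD3 islets and 28.1% ± 2.28 in IgG islets (SD, n = 6 each). Chymotrypsinogens made up 27.5% ± 2.20 in anti-CD3 islets and 32.2% ± 3.66 in IgG islets. Elastases made up 27.3% in anti-CD3 islets and 26.6% in IgG islets, and carboxypeptidases 12.96% in anti-CD3 islets and 13.04% in IgG islets. The even share of the carboxypeptidases combines the lower share of Cpa1 with a higher mean for Cpb1, 7.23% in anti-CD3 islets against 6.37% in IgG islets.

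Corrected for transcript length, Ctrb1 also led, with 26.1% of the 10-gene counts per kilobase in anti-CD3 islets and 31.1% in IgG islets. Prss2 followed with 15.7% in anti-CD3 islets and 12.8% in IgG islets, and Try4 with 14.2% in anti-CD3 islets and 13.2% in IgG islets. The order of Prss2 and Try4 was not steady, since Prss2 was the higher in 7 of 12 libraries, and Cela1 was above Try5 in 9 of 12. Ctrb1 was above Prss2, Cela2a above Cela1, Ctrl above Cpa1 and Cpa1 above Cpb1 in 12 of 12. The order of Ctrl, Cpa1 and Cpb1 rests on their annotated lengths of 879, 1583 and 2718 bases. In uncorrected counts Cpa1 was above Ctrl in every library. The mean uncorrected share of Cpb1 was above that of Cpa1 in anti-CD3 islets and below it in IgG islets.

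Some pairs of proteases kept a nearly fixed count ratio across all libraries. Over 45 pairs, the SD of the log2 ratio was smallest for Try4 and Cpb1 (0.0655), whose ratio lay between 1.52 and 1.73 in anti-CD3 islets and between 1.64 and 1.78 in IgG islets. It was largest for Try5 and Ctrb1 (0.374). The ratio of Prss2 to Ctrb1 lay between 0.491 and 0.669 in anti-CD3 islets and between 0.275 and 0.464 in IgG islets, without overlap. In 3 of 45 pairs the groups did not overlap, namely Prss2 with Ctrb1, Prss2 with Cpa1, and Ctrb1 with Cela3b. These pairs share genes, with Prss2 in 2 and Ctrb1 in 2. The share of other gene pairs without overlap is not given here, so the count cannot be set against a background.

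Sorted by these spreads, 8 of the 10 genes fell into 2 sets of 4, a grouping made after the values were seen and given without a test. Cela1 and Cela2a were left out of both, and their 17 pairs had SDs of 0.118 to 0.280, which bridged the sets (0.151 for Prss2 with Cela1). Prss2, Try4, Try5 and Cpb1 varied together (SD 0.0655 to 0.158), as did Ctrb1, Ctrl, Cela3b and Cpa1 (SD 0.102 to 0.167). Pairs drawn across the sets had SDs of 0.233 to 0.374. Across the sets the SD was 0.188 to 0.322 among anti-CD3 libraries and 0.145 to 0.318 among IgG libraries. Within the first and second set it was 0.0607 to 0.154 and 0.0347 to 0.0794 among anti-CD3 libraries. Among IgG libraries it was 0.0335 to 0.113 and 0.0598 to 0.151, so the ranges within and across the sets overlapped there. IgG library 1 lay apart for the pair of largest spread. Its ratio of Try5 to Ctrb1 was 0.148, against 0.224 to 0.277 in the other IgG libraries. The carboxypeptidases were divided between the sets, with Cpb1 in the first and Cpa1 in the second.

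**Figure D4:**
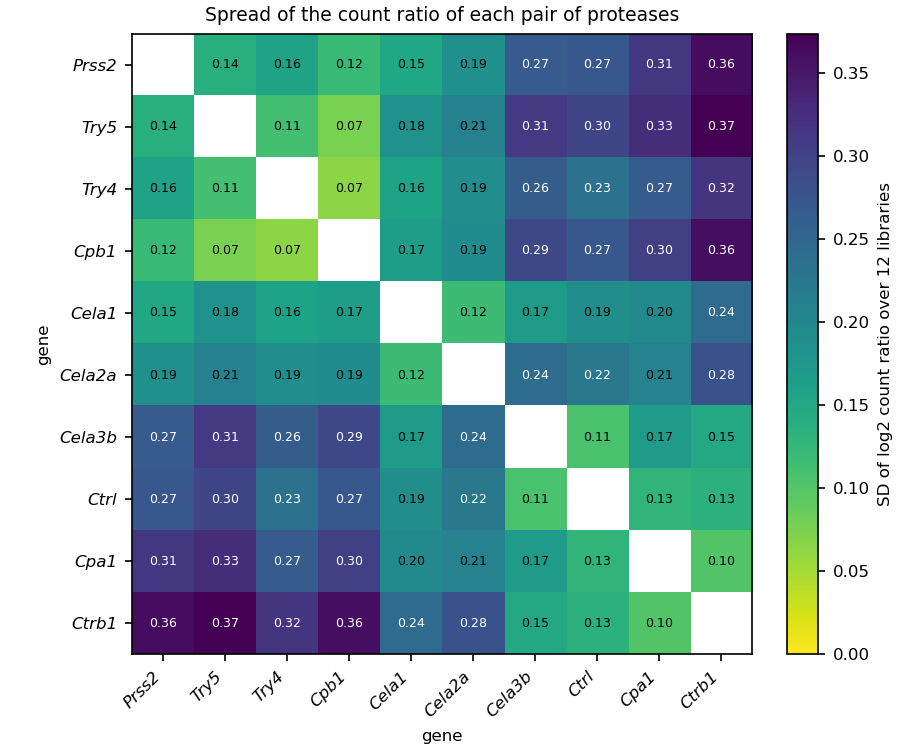
SD over 12 libraries of the log2 count ratio of each pair of proteases, with genes on both axes and the SD as colour. Prss2, Try5, Try4 and Cpb1 form one block of low spread and Cela3b, Ctrl, Cpa1 and Ctrb1 another, with SDs of 0.233 to 0.374 between the blocks.

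The promoters of Prss2, Ctrb1 and Cpa1 are shown as the 250 bases before the start in RefSeq (GRCm38.p6). They were picked by their values, an exact permutation p under 0.05 for the ratio to the other proteases before adjustment over all genes. Acinar genes are bound by PTF1, a complex that recognises an E-box together with a TC-box. Capitals mark CACCTG and TTTCCC on either strand (CAGGTG and GGGAAA on the other). Prss2 lies at chr6:41521526-41521775 on the plus strand, Ctrb1 at chr8:111691011-111691260 on the minus strand and Cpa1 at chr6:30638968-30639217 on the plus strand.
Prss2: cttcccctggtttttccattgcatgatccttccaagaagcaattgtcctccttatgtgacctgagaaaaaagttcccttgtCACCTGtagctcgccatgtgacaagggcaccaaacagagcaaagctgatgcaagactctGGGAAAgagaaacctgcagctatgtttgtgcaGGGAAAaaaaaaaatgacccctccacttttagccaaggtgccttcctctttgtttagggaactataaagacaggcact
Ctrb1: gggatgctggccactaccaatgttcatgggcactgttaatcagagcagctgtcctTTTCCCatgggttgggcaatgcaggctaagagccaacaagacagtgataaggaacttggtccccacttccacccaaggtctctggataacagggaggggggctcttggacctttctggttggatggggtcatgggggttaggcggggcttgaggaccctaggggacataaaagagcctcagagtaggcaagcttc
Cpa1: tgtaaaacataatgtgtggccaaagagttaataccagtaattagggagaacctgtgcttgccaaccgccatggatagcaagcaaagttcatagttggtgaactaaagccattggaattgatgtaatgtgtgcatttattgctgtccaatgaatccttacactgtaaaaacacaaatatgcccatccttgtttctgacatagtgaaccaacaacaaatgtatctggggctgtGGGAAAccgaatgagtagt

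RefSeq promoters were matched for 9 of the 10 genes, all but Try5. CACCTG was found in 7 of 9 (all except Ctrb1 and Cpa1), against 17.2% of 32851 mouse promoters of the same length. TTTCCC was found in 5 of 9, against 21.9%, and the wider E-box CANNTG, which includes CACCTG, in 9 of 9, against 66.2%. These matches describe the letters in the window only, and a link between them and the ratios was not tested.

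Other lists of acinar and protease-related genes had positive median estimates over the 12 libraries, and no gene in them passed the edgeR test. Their estimates without IgG libraries 5 and 6 are not given here. The other pancreatic proteases took 4.71% of counts in IgG library 5 and 2.88% in IgG library 6, against 5.80% to 6.38% in the remaining IgG libraries. Other digestive enzymes (14.9% and 8.64%) and zymogen granule genes (1.43% and 0.935%) were also lowest there. Protease inhibitors and lysosomal proteases were highest there, at 0.151% and 0.172%, against 0.120% to 0.142%. Acinar transcription factors took 0.0387% and 0.0402%, against 0.0350% to 0.0452%. The TMM factors of IgG libraries 5 and 6 were 1.59 and 2.36, the highest of all libraries, and their part in these estimates was not tested. Of 13 other pancreatic proteases, 11 had a positive log2 fold change, with a median of 0.76. The remaining 2 were the trypsinogen genes Prss3 (-0.32 ± 0.58) and Gm5771 (-0.71 ± 0.65), named after their values were seen. Among the most abundant were the trypsinogen-like gene 2210010C04Rik (0.76), the chymotrypsin C gene Ctrc (0.55) and the tissue kallikrein Klk1 (1.13). Of the protease inhibitors and lysosomal proteases linked to zymogen activation, 6 of 6 tested, of 8 listed, were positive, with a median of 0.43, and the trypsin inhibitor Spink1 had 0.98 ± 0.33 (adjusted p = 0.164). The inhibitor Serpini2 had 0.93, and the lysosomal cathepsins Ctsl and Ctsb had 0.59 and 0.27.

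Of 10 other digestive enzymes, 10 were positive, with a median of 0.58, including the lipase Pnlip (0.48), the carboxyl ester lipase Cel (0.39), Pnliprp1 (0.68) and the amylase Amy2b (0.93). Of 10 zymogen granule and secretion genes, 10 were positive, with a median of 0.70, including Sycn (0.72), Gp2 (0.79), Zg16 (0.68) and Cuzd1 (0.86). Of 8 acinar transcription factors, 6 were positive, with a median of 0.54, including Xbp1 (0.79), Rbpjl (0.64) and Bhlha15 (0.29). The remaining 2 were Tcf12 (-0.01) and Tcf3 (-0.31), the latter named after its value was seen. Each log2 fold change in these lists is read against the median of -0.05 over all genes, and each count of positive genes against 44.8% of all genes.

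Across the 12 libraries, the log2 level of the proteases followed a common pattern. The Pearson correlation of each with the mean of the 10 ranged from 0.965 (Ctrb1) to 0.996 (Cela1). Among the genes outside the set most like that mean were the lipase-related gene Pnliprp1 (r = 0.997), Gm15915 (0.996), Nucb2 (0.993) and 2210010C04Rik (0.992). Without IgG libraries 5 and 6 these fell to values between 0.941 and 0.963, so the values depend in part on those libraries. These correlations are descriptions over 12 libraries that share their depth and scaling.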

How the data were processed

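Gene counts were deposited by the authors as raw counts for 12 islet libraries. Per the submitters' processing notes, Trimmomatic 0.36, STAR 2.5.2b, featureCounts from Subread 1.5.2 and DESeq2 were used with GRCm38; for strand settings and multiply mapped reads, the sources used here state nothing. The authors' deposited comparison table holds normalized counts (a signal, equal to counts over a size factor), log2 fold changes and p-values.

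From the raw counts, edgeR 4.0.16 (quasi-likelihood, TMM, robust, filterByExpr with at least 10 counts) was fitted over all 12 libraries with treatment as the only term, and p-values were adjusted over 13115 genes. Shares of total counts and log2 ratios to the other proteases were compared by exact two-sided permutation over all regroupings of 6 against 6. DESeq2 1.42.0 and limma 3.58.1 served as alternatives. The edgeR fit was checked on simulated counts with known changes. The 10 genes and the other gene lists were chosen with earlier results of these data known. Named genes outside the set were the 4 most abundant of each list and the 5 most correlated with the proteases; a gene named by this rule is not reported here.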

Additional observations from a re-analysis of the deposited data

Results flagged for a closer look

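All flagged values were parts of the mix of proteases in IgG library 1. In percent of the 10-gene count total, Ctrb1 was highest there at 34.6% (nearest library 28.7%) and Cela3b was highest at 5.99% (nearest 4.74%). Try4 was lowest at 9.14% (nearest 10.8%) and Cpb1 was lowest at 5.13% (nearest 6.33%). In each case the gap to the nearest library, divided by the range of the group, exceeded Dixon's critical value for 6 samples. This held in 4 of 62 groups tested, and chance flags about 1 in 20, so the number of flags is close to that rate. The 4 flags are parts of the same total in the same library, so they are not independent.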

How the results depend on the processing

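The count of proteases passing an adjusted p of 0.05 was 0 in edgeR and 1 with DESeq2 (Prss2, adjusted p = 0.0492), and 0 in every fit without a single library. Over all genes the count was 10 in edgeR, against 468 with DESeq2, 135 with limma-voom, 6 with upper-quartile factors, 0 with library totals, 167 with no filter on low counts, 5 without robust estimation, 4 with a length offset, 1 without IgG libraries 5 and 6, and 0 to 203 without a single library. Scaled to the proteases, the count of proteases was 1, against 0 with DESeq2, 2 with genes kept only at a CPM over 1 in at least 6 libraries, 0 without IgG libraries 5 and 6, and 0 to 2 without a single library. For shares the count was 5, against 3 with medians, 4 without IgG libraries 5 and 6 (2 higher, 2 lower) and 3 to 6 without a single library, and for ratios it was 3, against 3 to 5. For shares, ratios and the fit scaled to the proteases, the percentage of all genes passing under these other settings is not given here. These counts therefore cannot be set against a background.

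Directions turned as follows. The Ctrb1 log2 fold change was -0.028 with library totals and -0.0069 without IgG libraries 5 and 6. Without those libraries the share difference was -0.062 for Ctrl and -0.32 for Cpa1, the Cela3b difference scaled to the proteases was -0.028 and its ratio difference -0.023. With medians the share difference of Cpa1 was -0.20 and the ratio difference of Cela2a -0.10. Without a single library, the share difference ranged from -1.41 to 0.57 for Ctrb1 and from -0.19 to 0.15 for Cpa1. Scaled to the proteases it ranged from -0.035 to 0.048 for Cela2a and from -0.023 to 0.080 for Cela3b, and the ratio difference from -0.042 to 0.060 for Cela2a and from -0.019 to 0.081 for Cela3b. The cause was not tested.

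Replicate numbers did not pair the libraries: same-numbered libraries correlated at -0.29 to 0.55, and 2 of 6 correlated best with their own number. With the replicate number as a block, 0 proteases and 0 of all genes passed, 0 proteases passed when scaled to the proteases, and the log2 fold changes ran from 0.57 (Ctrb1) to 1.12 (Prss2).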
